A study of Homo sapiens with 21 samples.

Results

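A gene expression state was examined that 2 of 4 CRISPR knockout clones of THP1 cells had in common, although those 2 clones carry different knockouts. The clones were ATF7 KO clone 1 and JDP2 KO clone 2, called pair A here, and they were set against ATF7 KO clone 2 and JDP2 KO clone 1, called pair B. Each clone had 2 libraries, so the comparison held 4 against 4, 8 of the 19 libraries with values. The pairing was chosen on these same expression values, and every value between the pairs is therefore a description with no test. A gene was counted as differing when the 4 libraries of pair A did not overlap the 4 of pair B and when the clone difference was at least 1 on the log2 scale, in the same direction, within the ATF7 clones and within the JDP2 clones. Of 13430 genes with a mean of at least 10 normalized counts over the 8 libraries, 95 met this definition, 32 higher and 63 lower in pair A.

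The series profiled messenger RNA in THP1, an established human acute myeloid leukemia line with monocyte-like features. It compared shRNA knockdown of IRF2BP2, a transcriptional cofactor (shRNA1 and shRNA2, 3 libraries each), with an shRNA control (2 libraries with values), and knockouts of ATF7 and JDP2, basic leucine zipper transcription factors, with a knockout control (2 libraries). A single wild-type library also had values. The knockout cells were transfected with a CRISPR vector and cloned by limiting dilution, so each clone descends from 1 cell, and each clone stands for 1 lineage of its knockout; the labels do not say whether the knockout control was cloned, and no drug or stimulus is named for any group.

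Cells cloned from a cancer line each carry the chromosome content and the epigenetic state of the founding cell, and such states can be passed on through many divisions. In a bulk RNA library, a gene silenced in every cell of a clone is read at or near 0, whereas a change in the number of copies of a chromosome moves many neighbouring genes by a small amount; DNA was not measured in these libraries. In bulk libraries, fewer cells expressing a gene and less message per cell cannot be told apart. THP1 libraries are expected to hold messages of the monocytic lineage, and chromosome 19 is known for its many genes of the Krüppel-type zinc finger family, which encode DNA-binding repressors.

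Depth ranged from 28.7 to 60.2 M (mega) reads assigned to genes per library. JDP2 clone 1 replicate 2, a pair B library, stood apart, in that 38.2 percent of its genes departed by over 2-fold from the median library, against 6.0 to 14.8 percent in the other 7 clone libraries. Gene GC content moved with the library as well, with a rank correlation between GC and a gene's deviation of 0.45 in that library and between -0.14 and 0.44 in the other 7. Without it 101 genes met the definition (47 higher and 54 lower). Of the 95 genes that met it with all 8 libraries, 68 were among these 101 (25 higher and 43 lower). The others of the 101 met the definition only without this library, so the similar totals hide a change of members. Of the 20 genes named below for the size of their difference, 18 met it without this library (not KCNJ5 and TMEM141), and their differences changed by a median of 0.25 and at most 0.58 (DLL3). Values over many genes rested on it more, and those are given with and without it. Of the myeloid markers examined, SPI1 stood between 12519 and 45680 normalized counts, CEBPA between 29834 and 93102 and ITGB2 between 46474 and 87273 in the 8 clone libraries, so myeloid markers were present in both pairs. MPO was low in all of them (16.6 to 53.2), and LILRB4 was at 0 in all 4 pair A libraries and at most 14.9 in pair B. PAX5, a B-lineage factor, was read at 693 to 1670 in all 8. The summed level of the megakaryocyte and platelet list was 5.92 to 7.32 on the log2 scale in pair A and 5.78 to 9.24 in pair B, and that of the epithelial list 7.09 to 8.38 and 6.93 to 8.12, so neither list separated the pairs.

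The targeted genes did not separate the pairs. ATF7 was 645 and 511 in ATF7 clone 1 and 617 and 363 in ATF7 clone 2, and JDP2 was 3158 and 5693 in JDP2 clone 1 and 4652 and 5368 in JDP2 clone 2. Both ranges overlap between the pairs. In the JDP2 clones ATF7 was 299 and 168 (clone 1) and 307 and 306 (clone 2), below all ATF7 clone libraries. The controls stood at 210 to 537. JDP2 in the ATF7 clones, at 2636 to 5447, overlapped its level in the JDP2 clones. An edit can end a protein without removing its message, and the message therefore does not settle whether the clones are labelled correctly.

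The genes lower in pair A included some that pair B expressed strongly and pair A almost not at all. The largest difference was at LRP3, a member of the LDL receptor family, on chromosome 19 (GRCh38, 33194330 to 33208864), which pair A still expressed. LRP3 was read at 235 and 348 normalized counts in ATF7 clone 1 and at 139 and 205 in JDP2 clone 2, and at 15304 and 27665 in ATF7 clone 2 and 18170 and 64300 in JDP2 clone 1. The means were 232 ± 87.4 in pair A and 31360 ± 22587 in pair B (SD, n = 4 libraries each), and the difference was -6.91 on the log2(normalized count + 1) scale on which all differences below are given. The ranges of the pairs did not overlap, and each clone of a pair was on the same side as the other.

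EPS8L1, an actin-regulating adaptor related to EPS8, stood at 8.6, 19.5, 4.5 and 5.6 in pair A and at 675, 858, 681 and 2008 in pair B, a difference of -6.68. SIX5, a homeodomain transcription factor, stood at 14, 19.5, 12.8 and 4.5 against 464, 844, 695 and 1652, a difference of -6.05. GRIN2D, a subunit of the NMDA-type glutamate receptor, stood at 64.7, 79.2, 48 and 40.4 against 1566, 1597, 1288 and 1643, a difference of -4.73. In these 3 genes, as in LRP3, both clones of pair A were low, as the definition requires. DLL3, a Notch ligand, read 0, 13, 9.6 and 11.2 against 189, 345, 144 and 729, and DKKL1, related to the Dickkopf family, read 2.2, 0, 7.7 and 0 against 63.6, 63.6, 95.9 and 283. Their differences were -5.47 and -5.50.

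Some zinc finger genes of chromosome 19 were near 0 in pair A. ZNF331 was read at 1.1 and 2.2 in ATF7 clone 1 and at 0 in both libraries of JDP2 clone 2, against 103, 88.8, 141 and 70.9 in pair B. ZNF569 read 8.6, 2.2, 1.3 and 0 against 112, 106, 124 and 91.4, ZNF468 read 2.2, 4.3, 4.5 and 0 against 138, 48, 148 and 46.6, and ZNF606 read 2.2, 4.3, 6.4 and 2.2 against 91.4, 104, 95.9 and 104. The differences were -5.95, -5.23, -4.75 and -4.48 in that order. Where a clone is at 0 in both libraries, the size of the difference depends on the added constant of 1.

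The genes ZNF569, ZNF570 and ZNF571 were the one run of 3 or more tested neighbours that were all lower in pair A, on chromosome 19 from 37411157 to 37594792. The run of 3 rests on ATF7 clone 2 replicate 1, without which ZNF571 did not meet the definition. ZNF570 read 2.2, 4.3, 0 and 0 in pair A and 40.5, 40.8, 44.3 and 26.1 in pair B, and ZNF571 read 4.3, 6.5, 0 and 0 against 41.7, 19.2, 14.8 and 18.6. ZNF569 and ZNF570 are transcribed in opposite directions. The transcript starts used here are 328 bases apart, and the 250-base upstream windows share 173 bases. ZNF468 and ZNF600 are neighbours with no tested gene between them, and the lower coordinates of their annotated spans are 73.8 kb apart. They differed in opposite directions: ZNF600 was higher in pair A, at 61.4, 51, 67.2 and 49.4 against 9.3, 2.4, 13.7 and 14.9. Reads that fit several related zinc finger genes could not be assigned further, because nothing here states how shared reads were counted.

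The upstream sequences of 4 of these lower genes and of CD68, a gene higher in pair A, are given from RefSeq (GRCh38.p14). Each holds the 250 bases before 1 listed transcript start, 5′ to 3′ in the direction of transcription, with CG dinucleotides in capitals. For DKKL1, ZNF569 and ZNF606 the start used lies inside the annotated span of the gene. The sequences are given because silenced and expressed genes are often compared by the CpG content of their promoters. The windows are chr19:33194080-33194329 on the plus strand for LRP3, chr19:49363627-49363876 on the plus strand for DKKL1, chr19:37467445-37467694 on the minus strand for ZNF569, chr19:58002821-58003070 on the minus strand for ZNF606 and chr17:7579388-7579637 on the plus strand for CD68.
LRP3: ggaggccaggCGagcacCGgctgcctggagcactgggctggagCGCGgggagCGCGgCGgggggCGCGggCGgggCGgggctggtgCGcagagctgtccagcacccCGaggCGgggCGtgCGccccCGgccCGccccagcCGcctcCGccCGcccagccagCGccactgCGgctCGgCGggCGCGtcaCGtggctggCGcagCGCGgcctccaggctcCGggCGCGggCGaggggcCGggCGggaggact
DKKL1: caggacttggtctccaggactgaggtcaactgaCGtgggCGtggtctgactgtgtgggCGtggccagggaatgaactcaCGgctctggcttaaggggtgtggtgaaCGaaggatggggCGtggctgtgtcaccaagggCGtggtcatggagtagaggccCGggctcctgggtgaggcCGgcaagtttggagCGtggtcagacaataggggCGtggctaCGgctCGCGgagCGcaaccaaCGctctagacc
ZNF569: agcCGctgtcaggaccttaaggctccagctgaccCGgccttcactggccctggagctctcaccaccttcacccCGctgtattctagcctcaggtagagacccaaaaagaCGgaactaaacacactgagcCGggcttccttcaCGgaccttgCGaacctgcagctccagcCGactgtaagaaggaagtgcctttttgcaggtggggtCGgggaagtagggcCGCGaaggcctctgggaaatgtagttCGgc
ZNF606: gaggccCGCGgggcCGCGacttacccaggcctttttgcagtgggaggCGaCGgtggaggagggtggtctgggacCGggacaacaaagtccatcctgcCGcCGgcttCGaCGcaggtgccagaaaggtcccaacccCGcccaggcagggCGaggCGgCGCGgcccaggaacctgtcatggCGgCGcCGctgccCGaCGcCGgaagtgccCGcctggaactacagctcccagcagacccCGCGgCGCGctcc
CD68: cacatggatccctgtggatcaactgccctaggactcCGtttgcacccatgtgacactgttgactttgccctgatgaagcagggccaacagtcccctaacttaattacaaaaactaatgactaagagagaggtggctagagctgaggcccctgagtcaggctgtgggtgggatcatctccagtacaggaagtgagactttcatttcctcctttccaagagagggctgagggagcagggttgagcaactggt
The windows held 37, 16, 12, 27 and 1 CG dinucleotides in that order, so the lower genes shown here ranged widely in CpG content.

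Over the 300 bases from 250 before to 50 after the first listed start, the median number of CG dinucleotides was 19 in 49 of the 63 lower genes, 11 in 22 of the 32 higher genes and 26 in the 10790 tested genes with a promoter in the table. At least 20 were present in 46.9 percent of the lower, 36.4 percent of the higher and 69.1 percent of all. Both groups of differing genes thus had fewer CG dinucleotides than tested genes as a whole, beside a library effect that itself moved with GC, and the part of GC in this was not tested. The CRE motif TGACGTCA, a known site of ATF-family dimers and its own reverse complement, was in 0 of the 49 lower and 0 of the 22 higher promoters and in 3.18 percent of all. The AP-1 motif TGACTCA, searched on both strands, was in 1 lower promoter (IL11), 2 higher promoters (S100A3 and CD68) and 3.06 percent of all. Neither motif contains the other, and the matches are descriptions.

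**Figure D1:**
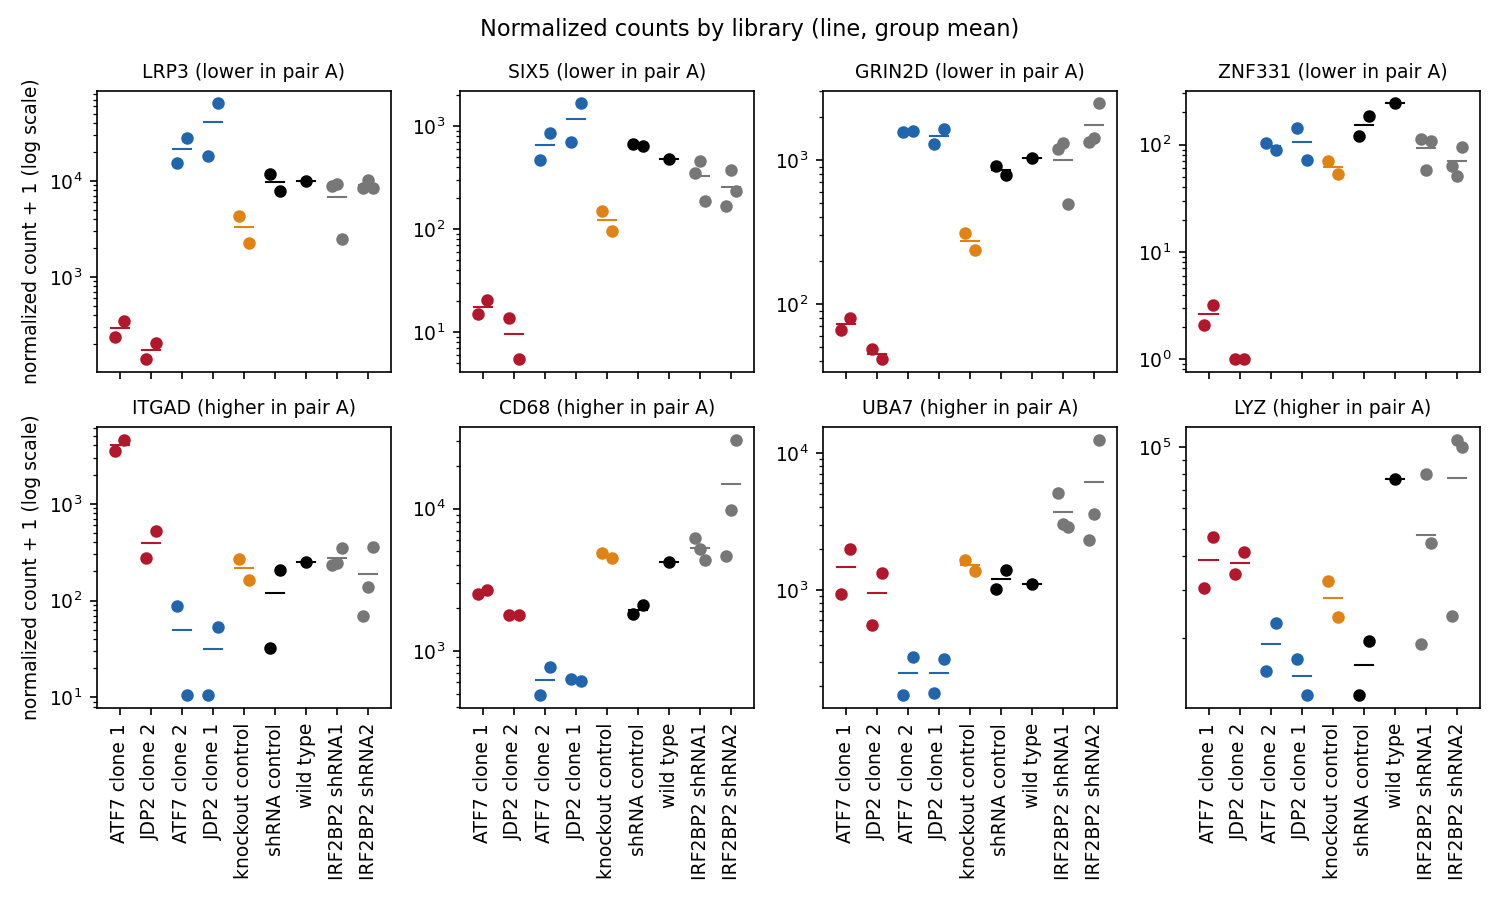
Normalized counts plus 1 (log axis) of 4 genes lower and 4 genes higher in pair A, 1 point per library and a line at the mean of each group, with pair A in red, pair B in blue, the knockout control in orange, the other controls in black and the IRF2BP2 knockdown in grey. For LRP3 the pair A libraries sit between 139 and 348, the pair B libraries between 15304 and 64300, and the knockout control libraries, at 4323 and 2278, below the other controls.

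The 63 lower genes were spread unevenly over the genome. Chromosome 19 held 25 of them, 39.7 percent, and 7.69 percent of all tested genes. That share was 20.9 percent without ATF7 clone 2 replicate 2, 59.2 percent without ATF7 clone 2 replicate 1, and between 32.4 and 42.6 percent without any other single library. The share of tested genes that were lower was 0.469 percent over the genome, 2.42 percent on chromosome 19 and 0.295 percent on the other chromosomes, and the next highest share was 0.645 percent, 9 of 1395 genes, on chromosome 1. All 13 genes lower by at least 16-fold were on chromosome 19. The 32 higher genes, 0.238 percent of those tested, did not gather there, with 2 on chromosome 19 (ZNF600 and LILRA1).

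Within chromosome 19 the lower genes lay mainly on 1 side of the longest stretch without a tested gene start, from 24.0 to 29.2 Mb, which holds the centromere. Beyond it 23 of 567 tested genes were lower (4.06 percent), from VSTM2B at 29.5 Mb to ZNF606 at 58.0 Mb. VSTM2B, a gene with few reads, did not meet the definition without ATF7 clone 2 replicate 1, and the next lower gene, RGS9BP, starts at 32675848. Before it 2 of 466 were lower (0.429 percent, beside 0.469 percent of all genes), namely CERS1 and PEX11G, and without JDP2 clone 1 replicate 2 CERS1 alone. After the GC correction described below, 5 of 466 were lower before the gap (1.07 percent, beside 0.51 percent of all genes) and 25 of 566 beyond it. CERS1, a ceramide synthase, was high in ATF7 clone 2 alone (716 and 951), and it was read at 28.5 and 50.3 in JDP2 clone 1 and at 6.5, 15.2, 7.7 and 9 in pair A. It thus met the definition with JDP2 clone 1 much nearer to pair A than to ATF7 clone 2. Of 121 ZNF genes beyond the gap 7 were lower and 1 higher, with a median difference of -0.52, and of the 446 other genes there 16 were lower and 1 higher, with a median of -0.60, so the lower genes were not confined to the zinc finger family.

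The rest of chromosome 19 was also lower in pair A, by a much smaller amount. The median difference over all tested genes was -0.04, and over chromosome 19 it was -0.48, made up of -0.48 between the ATF7 clones and -0.46 between the JDP2 clones. Medians of the other chromosomes lay between -0.11 (chromosome 8) and 0.09 (chromosome 13). Chromosome 13 stood at 0.38 between the ATF7 clones and at -0.10 between the JDP2 clones, so its shift was not common to the knockouts. In runs of 50 tested neighbours the lowest median was -0.83, on chromosome 19 from 55.1 to 57.4 Mb, and the lowest outside chromosome 19 was -0.33, on chromosome 1. Of 823 runs with a median below -0.3, 821 were on chromosome 19, out of 984 runs there and 12108 in all. Neighbouring runs share most of their genes, so these counts are not counts of separate stretches. After the GC correction described below, 612 of 621 such runs were on chromosome 19. The lowest run there was then -0.68 and the lowest elsewhere -0.33. Without JDP2 clone 1 replicate 2 the chromosome 19 median was -0.23, the lowest run there -0.59 and the lowest elsewhere -0.27, and all 428 runs below -0.3 were on chromosome 19.

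**Figure D2:**
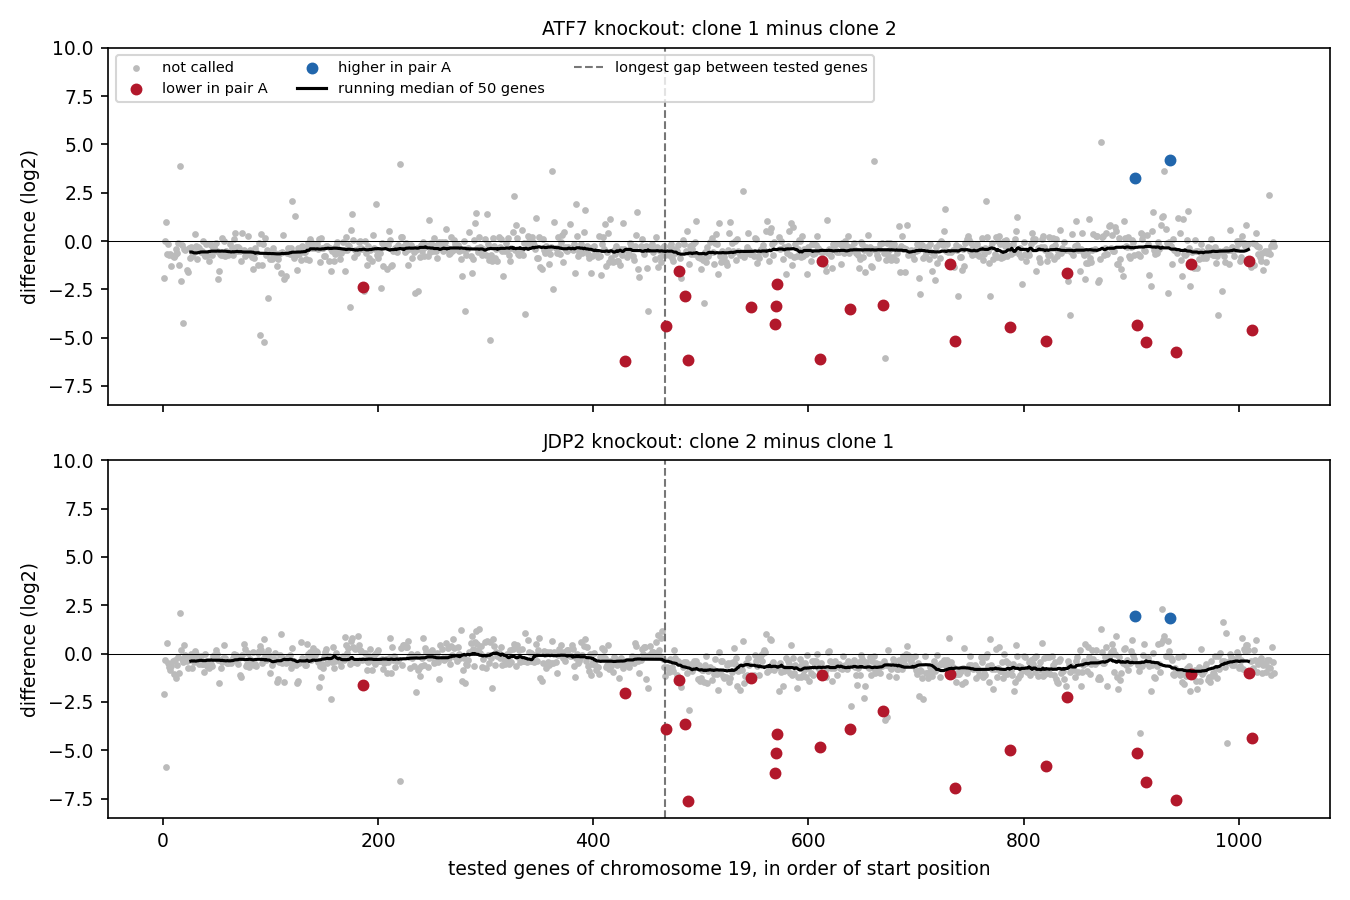
Clone difference (log2) of each tested gene of chromosome 19 in order of its start, between the ATF7 clones (upper panel) and between the JDP2 clones (lower panel), with a running median of 50 genes and a dashed line at the longest gap between tested starts. The 23 lower genes beyond the gap (red) are spread along that side of the chromosome in both panels, and the running median there sits below 0.

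Chromosome 19 is rich in GC, and JDP2 clone 1 replicate 2 bears on its median, so the levels were also given after each library's median deviation had been subtracted within 20 bins of gene GC content, a correction chosen after the data were seen. With it, the median difference beyond the gap was -0.53 between the ATF7 clones and -0.47 between the JDP2 clones. Before the gap it was -0.50 between the ATF7 clones and 0.01 between the JDP2 clones. The 2 knockouts thus had shifts of like size on the side of the gap that held the lower genes, and on the other side the shift appeared between the ATF7 clones alone; as deposited, the JDP2 value there was -0.27. Without JDP2 clone 1 replicate 2 the pooled difference was -0.38 beyond the gap and -0.10 before it, against -0.59 and -0.35 with all 8 libraries.

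The shift was then read in each library over chromosome 19 genes that had not been counted as differing, relative to shRNA control and wild type. Beyond the gap the GC-corrected median over 541 genes was -0.34 and -0.34 in ATF7 clone 1 and -0.35 and -0.30 in JDP2 clone 2. In pair B it was 0.07 and 0.16 in ATF7 clone 2 and 0.08 and 0.13 in JDP2 clone 1. The replicates of a clone differed by less than 0.1 and the pairs did not overlap. Before the gap, over 464 genes, the values were -0.28 and -0.29 in ATF7 clone 1, -0.32 and -0.27 in JDP2 clone 2, 0.04 and 0.22 in ATF7 clone 2, and -0.36 and -0.34 in JDP2 clone 1. On that side, after the correction, JDP2 clone 1 was therefore at the level of pair A, and ATF7 clone 2 stood alone. As deposited, before the gap, JDP2 clone 1 read -0.38 and 0.59, ATF7 clone 2 0.03 and 0.48, and pair A -0.24, -0.07, -0.25 and 0.02. On that scale the replicates of JDP2 clone 1 disagreed, and the clones were not separated in this way. As deposited, beyond the gap, pair A read -0.29, -0.15, -0.28 and -0.08 and pair B 0.04, 0.28, 0.07 and 0.78, where the 0.78 was JDP2 clone 1 replicate 2.

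The knockout control libraries were not used to choose the pairs, and they shared part of the chromosome 19 pattern. Their GC-corrected medians over genes not counted as differing were -0.25 and -0.23 beyond the gap and -0.19 and -0.26 before it. The values are relative to the mean of shRNA control and wild type, so those libraries lie near it by construction (-0.01 to 0.01). Of the 6 knockdown libraries, 5 lay between -0.03 and 0.06 on both sides. The sixth, the library labelled IRF2BP2 shRNA1 replicate 3, read 0.05 beyond the gap and -0.19 before it. As deposited, the knockout control read -0.17 and -0.52 beyond the gap and -0.11 and -0.64 before it, and shRNA1 replicate 3 was lower still, at -0.77 and -1.33. The knockout control is thus apart from all knockdown libraries only on the corrected scale and only beyond the gap. Before the gap, on that scale, shRNA1 replicate 3 was level with 1 knockout control library, both at -0.19. With 2 libraries against 3, an exact permutation test cannot give a two-sided p below 0.2, so no test is given, and this comparison was chosen after the data were seen.

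**Figure D3:**
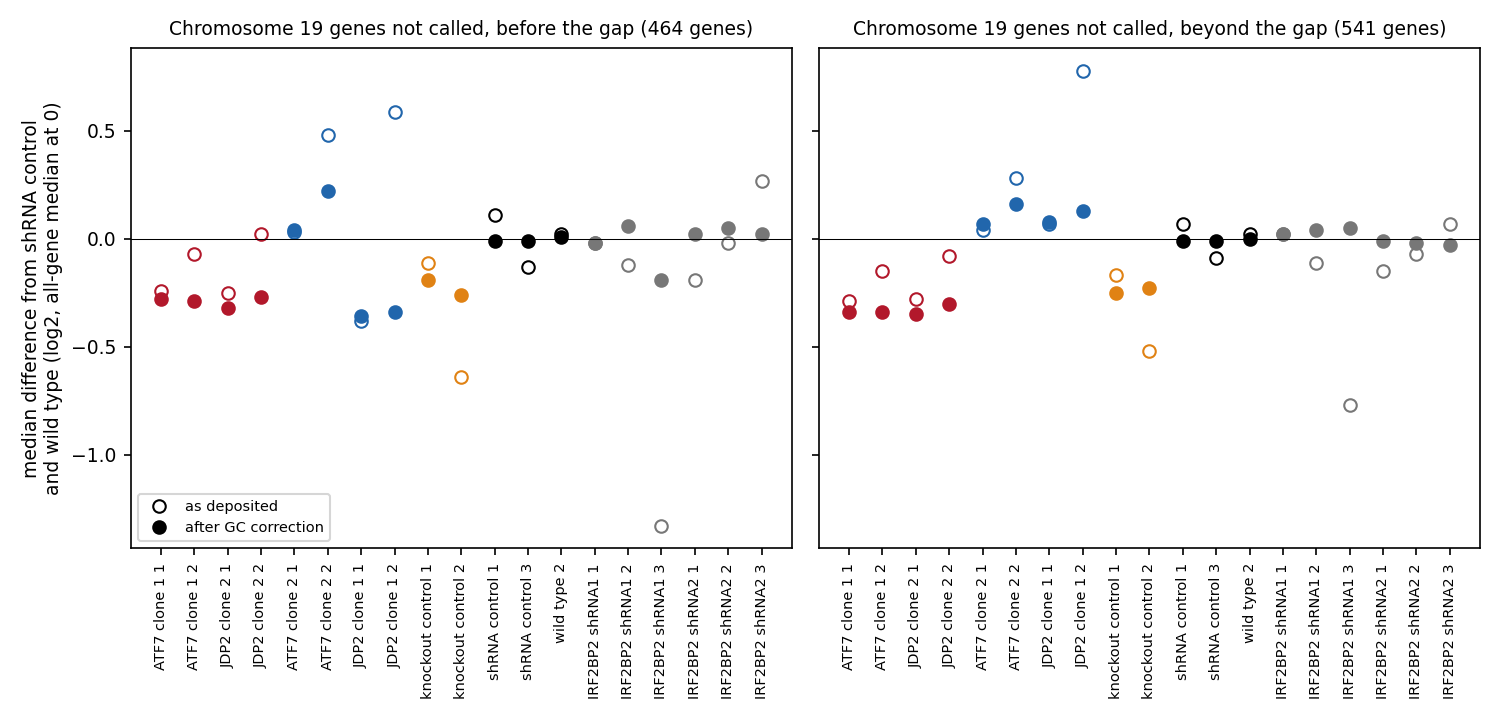
Median difference (log2) of chromosome 19 genes not counted as differing from the mean of shRNA control and wild type, with the median of all tested genes set to 0, for each of the 19 libraries before and beyond the gap, as deposited (open) and after GC correction (filled). After correction the 4 pair A libraries sit between -0.35 and -0.30 beyond the gap and the pair B libraries between 0.07 and 0.16, with the knockout control at -0.25 and -0.23.

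At 13 of the 23 lower genes beyond the gap both knockout control libraries lay between the ranges of the pairs, at 4 both lay in or below the range of pair A, and at 1 both in or above that of pair B. LRP3 was 4323 and 2278 there, against 11879, 7796 and 9991 in shRNA control and wild type. SIX5 was 148 and 94.8 against 673, 642 and 481, and GRIN2D was 309 and 236 against 912, 788 and 1030. Both knockout control libraries were below all 3 of the other control libraries at 16 of the 23 genes (69.6 percent), at 172 of the 542 other tested genes beyond the gap (31.7 percent) and at 11 percent of all tested genes. Over the 23 genes the median knockout control minus shRNA control and wild type was -1.19, against -0.33 for the 542 and 0 for all genes, and it was -1.18 after GC correction.

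With the mean of pair A set to 0 and that of pair B to 1 on the log2 scale, the median position over the 23 genes was 0.84 and 0.80 in shRNA control, 0.84 in wild type, 0.59 and 0.50 in the knockout control, and between 0.66 and 0.82 in the knockdown libraries. Of the 46 knockout control values, 30 fell between the ranges of the pairs, 4 in or above that of pair B and 12 in or below that of pair A. Of the 69 values in shRNA control and wild type, 33 fell in or above the range of pair B, 26 between and 10 in or below the range of pair A. At 11 of the 12 genes lower by at least 16-fold, all 3 of these controls were nearer to the mean of pair B than to that of pair A on the log2 scale, the exception being VSTM2B (5, 1.9 and 12.7, with pair A at 0 to 1.28 and pair B at 6 to 64.8). At the other 11 genes this held for 5, and the exceptions were OVOL3, EID2, SNRPD2, CPT1C, IL11 and ZNF814. EID2, for example, read 1306, 1084 and 1046 in the 3 controls, within the 996 to 1808 of pair A. SNRPD2 was 4305 in knockout control replicate 2, above 3 of the 4 pair B libraries.

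**Figure D4:**
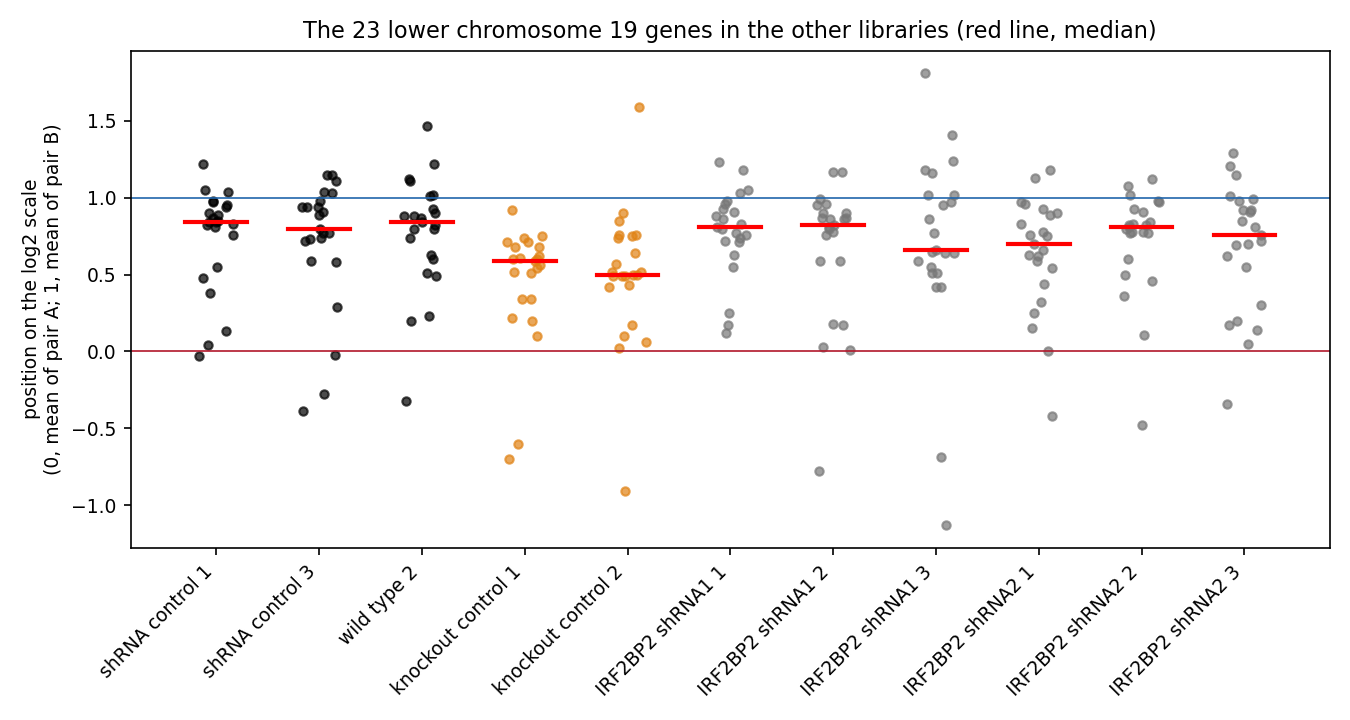
Position of each of the 23 lower genes beyond the gap in the 11 libraries outside the pairs, on a log2 scale where 0 is the mean of pair A and 1 the mean of pair B, with a red line at the median of each library. The knockout control medians, 0.59 and 0.50, are the lowest of the 11, and those of shRNA control and wild type lie between 0.80 and 0.84.

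Of the 40 other lower genes, those named here are neighbours of each other or members of the lists. The neighbours CXCL16, a chemokine, and ZMYND15, a zinc finger repressor, were both lower. Their annotated spans on chromosome 17, 4733533 to 4739928 and 4739833 to 4746119, overlap. CXCL16 read 12.9, 14.1, 7.7 and 12.3 in pair A, 44 and 40.8 in ATF7 clone 2, and 219 and 390 in JDP2 clone 1. The controls stood at 222 to 356, so ATF7 clone 2 was also below them. TET1, which oxidizes 5-methylcytosine in DNA, read 4.3, 34.7, 7.7 and 4.5 against 128, 61.2, 84.3 and 70.9, a difference of -3.10. FLT3, a receptor kinase of early hematopoietic cells, read 4.3, 17.4, 20.5 and 22.4 against 94.9, 40.8, 43.2 and 112, a difference of -2.17. In the controls TET1 ranged from 10.9 to 190 and FLT3 from 8.7 to 142, each spanning both pairs.

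Of the 32 higher genes ITGAD, the alpha D subunit of a leukocyte integrin, had the largest difference, 5.52: it read 3497 and 4590 in ATF7 clone 1 and 276 and 517 in JDP2 clone 2, against 87.9 and 9.6 in ATF7 clone 2 and 9.5 and 52.2 in JDP2 clone 1. The controls stood between 31.8 and 266, so JDP2 clone 2 was above them by a small margin and ATF7 clone 1 by a large one. LILRA1, a leukocyte immunoglobulin-like receptor, read 201, 315, 108 and 137 against 4.6, 33.6, 47.4 and 22.4, with the controls between 72.2 and 105. For ITGAD the pair A libraries were apart from the controls, and for LILRA1 both pairs were.

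CD68, a lysosomal protein of macrophages, read 2492, 2677, 1780 and 1772 in pair A and 484, 766, 630 and 613 in pair B, with means of 2181 ± 473 and 623 ± 115 (SD, n = 4) and a difference of 1.80. LYZ, lysozyme, read 30399, 47070, 34209 and 41142 against 15173, 22686, 16753 and 12307, a difference of 1.21. For CD68 all 5 control libraries (1813 to 4856) were above pair B, whereas for LYZ they ran from 12310 to 76328 and spanned both pairs. Of 26 tested genes of monocyte and macrophage differentiation, 2 were higher (CD68 and LYZ) and 0 lower, where 0.238 percent of all tested genes were higher, and the median difference was 0.32 against -0.04 for all tested genes. LYZ did not meet the definition with libraries scaled to equal totals, without ATF7 clone 1 replicate 2 or without ATF7 clone 2 replicate 1. The summed level of the list was 15.97 to 16.29 on the log2 scale in pair A and 15.17 to 15.43 in pair B, with LYZ making up 33.4 to 59.4 percent of it. Without LYZ the sum of the other 25 genes was 14.78 to 15.10 in pair A and 14.39 to 14.67 in pair B, so the ranges came closer and the sum with LYZ does not speak for the list.

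UBA7, the activating enzyme for ISG15, IFI35, an interferon-induced protein, and APOBEC3D, a cytidine deaminase, were also higher in pair A. UBA7 read 935, 1994, 553 and 1333 in pair A against 169, 321, 176 and 315 in pair B, with the controls at 1020 to 1654. All pair B libraries were thus below the controls, whereas the pair A libraries lay on both sides of the control range (935 and 553 below it, 1994 above). IFI35 read 182, 239, 52.5 and 59.5 against 44, 30, 24.2 and 22.4, and APOBEC3D 76.5, 78.1, 35.2 and 26.9 against 8.1, 20.4, 12.7 and 3.7. The 5 controls stood at 105 to 264 for IFI35 and at 45.6 to 60.9 for APOBEC3D. JDP2 clone 2 was below all 5 for both genes, whereas ATF7 clone 1 was within or above their range, and the pair B libraries were the lowest. Of 34 tested genes of the interferon-stimulated list none met the definition, and its median difference was 0.31. MHC class I and peptide loading genes had a median of 0.37, with 0 of 14 meeting the definition. The 4 tested MHC class II genes had one of 1.24 (0.45 between the ATF7 clones and 2.02 between the JDP2 clones), with 0 of 4. Without JDP2 clone 1 replicate 2 the pooled medians of these 3 lists were 0.36, 0.36 and 1.32, and that of the monocyte and macrophage list 0.45. In that setting 0 of 34, 0 of 14 and 1 of 4 genes of the 3 lists were higher. Of the monocyte and macrophage list 3 of 27 were higher, beside 47 of all 13213 tested genes.

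The remaining larger differences upward were TMEM72 (79.8, 99.8, 268 and 249 against 38.2, 12, 23.2 and 18.6), KCNJ5, a potassium channel subunit (94.9, 152, 78.1 and 88.6 against 15, 30, 42.2 and 29.8), and TMEM141 (911, 928, 831 and 464 against 101, 217, 432 and 155). TMEM72 was above all 5 controls in pair A (12.7 to 33.8), while KCNJ5 was below all 5 in pair B (89.1 to 141). Over the 32 higher genes, 42 of the 96 values in shRNA control and wild type were in or above the range of pair A, 25 in or below that of pair B and 29 between. The higher genes therefore had no common position in the controls.

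Lists of other functions held few or no differing genes. None of 36 proliferation genes, 27 genes of oxidative phosphorylation, 20 p53 targets, 13 HOXA and MEIS1 genes or 27 AP-1 and immediate early genes met the definition, and the medians were 0.03, -0.27, 0.04, 0.01 and -0.11. Cytosolic ribosomal protein genes had a median of -0.37 with 0 of 38 meeting it. The medians of the ribosomal protein and oxidative phosphorylation lists were -0.09 and -0.01 without JDP2 clone 1 replicate 2. The list of polycomb and DNA methylation genes had 1 lower gene (TET1) of 24, that of primary granule and progenitor genes 1 (FLT3) of 14, that of cytokines and chemokines 1 (CXCL16) of 12, and the lymphoid list 1 (IGLL1) of 9, against 0.469 percent of all tested genes. FLT3 did not meet the definition without JDP2 clone 1 replicate 2.

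The clone difference was compared between the knockouts over all tested genes. Of 1683 genes with a clone difference of at least 1 between the ATF7 clones and 1338 between the JDP2 clones, 516 were past it in the same direction, 30.7 percent of the first and 38.6 percent of the second, and 75 in opposite directions. The Pearson correlation of the 2 differences across the 13430 genes was 0.35, and 0.30 over the 12397 genes not on chromosome 19; genes are not independent replicates. The clones were paired on these values so that the differences go the same way, so the sign of the correlation and the excess of genes in the same direction follow from that choice. Both also rested on single libraries. Without JDP2 clone 1 replicate 2 the correlation was 0.03, with 228 genes in the same and 269 in opposite directions, and without ATF7 clone 2 replicate 1 it was 0.11, with 211 and 228. Without ATF7 clone 1 replicate 1 it was 0.17, and without any other single library it lay between 0.27 and 0.43. After the GC correction it was 0.35, with 483 and 83 genes.

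**Figure D5:**
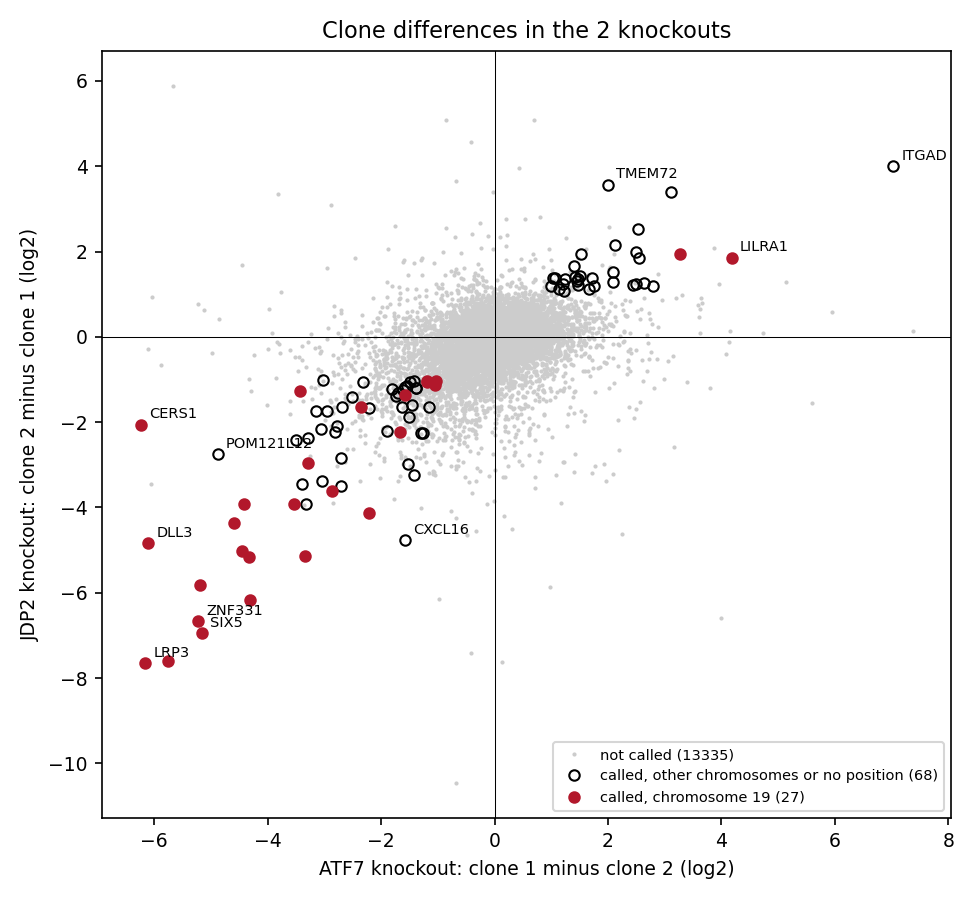
Clone difference of each of 13430 tested genes within the ATF7 knockout (horizontal axis, clone 1 minus clone 2, log2) and within the JDP2 knockout (vertical axis, clone 2 minus clone 1, log2), with the 27 differing genes of chromosome 19 in red and the 68 others as open circles. The genes farthest down in both directions are on chromosome 19, and ITGAD is alone at the upper right.

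JDP2 libraries were also compared with ATF7 libraries by limma, with the clone pair as a term. This fit counts the 2 libraries of a clone as replicates of a knockout that has 2 clones. No gene was called at an adjusted p under 0.05 (0 percent of 13430), and 336 had an unadjusted p under 0.05. edgeR's quasi-likelihood test on recovered reads also called 0, with 314 at an unadjusted p under 0.05, and DESeq2 called 9. None of the 9 was among the 95, but those were chosen to differ in the same direction in both knockouts, so this says nothing further about them.

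The libraries of the IRF2BP2 knockdown, outside the choice of the pairs, were compared with shRNA control by limma. Of 12738 tested genes 227 rose (1.78 percent) and 43 fell (0.338 percent) over both hairpins. Of the 30 tested genes higher in pair A, 2 rose and 0 fell, and of the 58 tested lower genes 1 rose and 2 fell. None of the 23 lower chromosome 19 genes was called (median change -0.05, with 4 at an unadjusted p under 0.05), so this knockdown gave no call at them.

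IFI35 rose from 105 and 115 in shRNA control to between 386 and 2990 in the knockdown (median 480), by 2.58 ± 0.55 (SE) on the log2 scale (limma, adjusted p = 0.0318), above the control mean in 6 of 6 libraries. With a replicate block IFI35 was not called. DNAJC5B, a DnaJ-family protein, rose from 37.8 and 64.7 to between 100 and 508 (median 183), by 1.94 ± 0.44 (limma, adjusted p = 0.0409), and it was not called by edgeR, with libraries scaled to equal totals or with no filter on the mean. Both were also higher in pair A than in pair B. TREM1, an activating receptor of myeloid cells, rose from 11.9 and 25.3 to between 102 and 551 (median 242), by 3.69 ± 0.55 (limma, adjusted p = 0.00501), yet it was lower in pair A (7.5, 10.8, 5.1 and 0 against 39.3, 16.8, 16.9 and 29.8). Set against the controls, pair A was not high as a whole at IFI35 or DNAJC5B. IFI35 in JDP2 clone 2 (52.5 and 59.5) was below all 5 controls, and DNAJC5B in pair A (47.4 to 79.2) lay within the 37.8 to 110 of the controls.

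IGLL1, a surrogate light chain of early B cells, stood at 925 and 166 in shRNA control and at 0 to 4.82 in the knockdown (median 3.58), and fell by 6.80 ± 0.87 (limma, adjusted p = 0.00232). In the clones IGLL1 read 25.9, 133, 43.5 and 121 in pair A against 331, 1030, 177 and 817 in pair B, and 30.4 and 65.8 in the knockout control. PDYN, prodynorphin, stood at 148 and 230 in shRNA control and at 3.62 to 13.1 in the knockdown (median 8.58), and fell by 4.40 ± 0.61 (limma, adjusted p = 0.00332). It read 14, 33.6, 39.7 and 39.3 in pair A against 60.2, 56.4, 114 and 72.7 in pair B. Of these 5 calls none was left without shRNA control replicate 1, when 36 genes were called in all. Without both hairpins' replicates 3, 16 of the 95 were called, when 1185 of all 12341 tested genes were called. In the library labelled IRF2BP2 shRNA2 replicate 3, IRF2BP2 itself read 25651, above the 16973 and 18382 of shRNA control, so directions in the knockdown include a library whose target message goes against its label.

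The number of differing genes depended on single libraries. It was 101 to 319 with 1 library left out at a time, when fewer libraries need to be apart. It was 319 without JDP2 clone 1 replicate 1, 185 without ATF7 clone 2 replicate 2 and 151 without ATF7 clone 1 replicate 2. Of the 95 genes, 43 met the definition in all 8 of these repeats, 12 higher and 31 lower, and 14 of the 31 were chromosome 19 genes beyond the gap. After the GC correction 76 of the 95 met it, among them 19 of the 23. The gene nearest to the limit inside it was TMEM107, with a smaller clone difference of 1.002, and the nearest outside was DNAAF3, at 0.97. COL21A1 at a mean of 10.007 was the lowest tested gene, and GSDME at 9.999 the highest left out.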

How the data were processed

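Messenger RNA of THP1 cells was sequenced, and the authors deposited a table of normalized counts (a signal per gene and library, read counts divided by a size factor); per the submitters' processing notes, featureCounts, DESeq2 and the hg38 genome were used. Versions, aligner, annotation and strand handling were not given in the sources used here. The table held 20423 genes and 19 of the 21 described libraries; 2 libraries marked low quality were not analysed here. The authors' tables of their own comparisons were not used. Of the 388037 values, 100 percent were whole multiples of 1 step per library within 0.01 (for 2 columns that step is near 1), so reads were recovered by division. Libraries of 1 group differed by more than sampling noise (chi-square per gene at least 86.1), and the labels do not say whether replicates were separate cultures, so the p-values reflect the spread of these libraries alone, part of which may be technical.

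The members and all gene lists were chosen with earlier results of these data known. Values were taken as log2(normalized count + 1), which understates changes of low genes, for genes averaging at least 10 in the libraries compared. Pair A and pair B were described with no test. Positions came from RefSeq (GRCh38.p14), matched by symbol for 98.5 percent of tested genes, and gene GC content from the transcripts of GENCODE release 29. The 2 other contrasts were tested with limma 3.58.1 (moderated statistics with a trend, Benjamini-Hochberg adjusted p under 0.05 over all genes tested), with edgeR 4.0.16 and DESeq2 1.42.0 on recovered reads as alternatives. Genes were named by rule: the 10 largest differences each way with a mean of at least 50 in either pair, runs of at least 3 neighbours, up to 3 members per list, the targeted genes and the called genes of each test; CERS1, PEX11G, ZMYND15, S100A3, IL11, EID2, SNRPD2, VSTM2B, OVOL3, CPT1C and ZNF814 were named after their values were seen. Both limma and the definition of differing genes were tested on simulated data. For limma the simulated libraries were independent, with no clone or GC effect, so they do not show how its calls behave in these libraries. Alternatives covered the added constant, the filter, the scaling, the definition, single libraries and a replicate block.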

Additional observations from a re-analysis of the deposited data

Results flagged for a closer look

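Among 68 groups of 4 libraries examined (each named gene and each chromosome 19 summary, in pair A and in pair B), 4 held a library far from the other 3, where chance flags about 1 in 20 groups. In pair A, DLL3 was at 0 in ATF7 clone 1 replicate 1 while the other 3 libraries read 13, 9.6 and 11.2. FLT3 was 4.31 in the same library, below 17.4, 20.5 and 22.4. TMEM141 was 464 in JDP2 clone 2 replicate 2, below 911, 928 and 831. In pair B, ZNF570 was 26.1 in JDP2 clone 1 replicate 2, below 40.5, 40.8 and 44.3.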

How the results depend on the processing

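Between the pairs, none of 27 named differing genes changed direction in 423 recomputed differences, and 8 of the values moved by more than 1 SD between libraries; of the 3 targeted genes IRF2BP2, at -0.10, read 0.01 to 0.07 in 3 recomputed values. The 63 lower, 32 higher and 95 differing genes became 29 lower and 53 differing with a mean of at least 50; 28, 4 and 32 with a clone difference of at least 2; and 293, 299 and 592 by the absence of overlap alone, when 124 in place of 23 lower genes lay on chromosome 19 beyond the gap. Without JDP2 clone 1 replicate 2 and ATF7 clone 2 replicate 1 together, chosen after seeing the data, they were 38, 106 and 144, and the correlation of the clone differences across genes, 0.35, was -0.06. With 1 library left out, the higher ranged from 30 to 120, the lower from 54 to 199, all from 101 to 319, the chromosome 19 genes beyond the gap from 21 to 43 (43 without JDP2 clone 1 replicate 1, 38 without ATF7 clone 2 replicate 1), and the median there from -0.79 to -0.38. The median of all genes was -0.04 as deposited and 0.06 with TMM, a shift to which the chromosome 19 values are relative. Taking the nearer pair mean in place of the ranges, 29 in place of 4 knockout control values, 56 in place of 33 shRNA control and wild type values and 109 in place of 51 knockdown values at the 23 genes were with pair B. The knockdown gave 270 calls (5 of the 95) and 756 (13) by DESeq2, 36 to 547 (0 to 7) with 1 library left out, and 1185 (16) without both replicates 3, added after seeing the data. Leaving out shRNA control replicate 1 gave 36 calls and leaving out its replicate 3 gave 111, beside 530 and 547 without shRNA1 replicates 1 and 3, and 169, 170 and 160 without shRNA1 replicate 2 and shRNA2 replicates 2 and 3. JDP2 minus ATF7 gave 0 by limma and edgeR, 9 by DESeq2 and 0 to 0 with 1 library left out. With a replicate block the knockdown gave 224 calls (4 of the 95) and JDP2 minus ATF7 gave 0. In the latter, 860 genes in place of 336 then had an unadjusted p under 0.05 by limma. Same-numbered libraries correlated between -0.40 and 0.58 in their deviations, so whether the numbers pair them was not settled. Genes with few reads limit the definition: 34 of the 63 lower and 8 of the 32 higher genes had a mean under 50, and 4 libraries a pair allow no test of the choice.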
